A study of Mus musculus with 6 samples.

Results

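Antigen presentation genes of the major histocompatibility complex (MHC) were followed in brown adipose tissue (BAT) of mice that lack Letmd1. They were the 4 class I genes B2m, H2-K1, H2-D1 and Nlrc5 and the 6 class II genes H2-Aa, H2-Ab1, H2-Eb1, H2-DMa, Cd74 and Ciita, taken by gene symbol, and all 10 were found among the 23282 rows of the deposited counts. BAT came from 3 wild-type and 3 Letmd1 KO male mice of strain C57BL/6N at 5 weeks of age. The study describes the null allele as a knockout-first allele from 1 ES cell clone, with a lacZ and neomycin cassette in an intron of Letmd1, so the gene was disrupted in all cells of the body, immune cells included. QuantSeq sequencing of mRNA 3′ ends asked which transcripts change when the mitochondrial matrix protein LETMD1 is lost. Counts of such libraries do not scale with transcript length, so levels of different genes are set side by side here as CPM, the share of a gene in a library after TMM scaling. The labels number the samples of a genotype, and p-values measure the spread between these samples.

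Class I molecules sit on nearly all nucleated cells and show peptides made in the cytosol to CD8+ T cells. Each is a heavy chain, such as H2-K1 or H2-D1, held by the light chain B2m. Class II molecules are pairs of an α and a β chain that show peptides from endocytosed protein to CD4+ T cells, and they are made mainly by dendritic cells, B cells and activated macrophages. Their promoters share the S, X and Y boxes, where RFX, CREB and NF-Y proteins gather and recruit a transactivator, which is CIITA for class II and NLRC5 for class I. Interferon gamma is the best known inducer of both. Adipose tissue holds resident macrophages and dendritic cells beside its adipocytes.

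Promoter sequences are shown for letters of elements described for MHC promoters, the Y box and the sites of interferon regulatory factors. RefSeq promoters of build GRCm38.p6, from 250 bases before to 50 bases after the transcript start, were read for 6 of the 10 genes. They were searched on both strands for the Y box core CTGATTGG, which contains the CCAAT core ATTGG, and for the interferon regulatory factor (IRF) core AANNGAAA. The first lines show 30 bases around the Y box core with the match in capitals, 5′ to 3′ on the strand of the gene.
H2-Aa: aagagaattttCTGATTGGttctggcgagt
H2-Eb1: ctcctttgatgCTGATTGGctcccagcact
H2-D1: gattccaggagCCAATCAGcgtcgccgcgg
H2-K1: atcaccaagaaCCAATCAGtgtcgccgcgg

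The core reads forward in the class II genes H2-Aa (minus strand, chr17:34287856-34287885) and H2-Eb1 (plus strand, chr17:34305794-34305823), where it begins 51 and 62 bases before the transcript start. It reads on the other strand in H2-D1 (plus strand, chr17:35263030-35263059), 53 bases before the start, and in H2-K1 (minus strand, chr17:34000321-34000350), 8 bases after it. The Y box core was present in 4 of the 6 promoters and in 4.1% of all 32851 promoters in the table. The shorter CCAAT core is in 37.4% of all promoters.

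The IRF core was present in 4 of the 6 promoters and in 23.9% of all promoters, and is shown in the 3 class I genes that have one and in H2-Aa.
B2m: taagaacatgaAACTGAAAatgggaaagtc
H2-K1: catctccacagTTTCACTTctgcacctaac
H2-D1: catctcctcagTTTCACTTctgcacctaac
H2-Aa: cacataagcacAAGAGAAAgagtctgactt

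It begins 137 bases before the start in B2m (chr2:122147539-122147568), 90 in H2-K1 (chr17:34000419-34000448), 150 in H2-D1 (chr17:35262933-35262962) and 213 in H2-Aa (chr17:34288018-34288047). The H2-K1 and H2-D1 matches are on the strand opposite to the gene. None of the 3 cores was found in the window of H2-DMa. These matches are letters in a window and no measure of binding.

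Library totals ran from 6669577 to 14574273 counts. The floor, set at 3 counts as the most that a count of 0 leaves possible, was 0.176 to 0.397 CPM (counting error only). Letmd1 had between 5266 and 6490 counts in each wild-type mouse and 0, 0 and 1 in the KO mice. Of all 12995 genes tested with edgeR, 23.7% were higher and 22.3% lower in Letmd1 KO BAT (46.0% in all). The groups did not overlap for 57.3% of them, and for 30.1% all KO values lay above all wild-type values. The TMM factors lay between 0.852 and 0.886 in the wild-type and between 1.13 and 1.17 in the KO libraries, and without them the median of all genes went from 0.03 to 0.45 on the log2 scale. Brown adipocyte markers summed to 39919 to 45281 CPM in wild-type and 12393 to 16063 CPM in KO BAT, most of it the general adipocyte gene Fabp4 (28020 and 10462 CPM on average). Ucp1, which defines brown fat, was at 6328 ± 519 CPM in wild-type and 382 ± 114 CPM in KO mice (SD, n = 3 each). Skeletal muscle markers summed to between 2.91 and 287 CPM in wild-type mice, most in replicate 2, and to between 219 and 874 CPM in KO mice, most in replicate 3, and their part in the results below was not tested. Leaving out these 2 mice does not even out muscle, since the others summed to 2.91 and 2.999 CPM in wild-type and to 293 and 219 CPM in KO mice; the 9 tested MHC genes kept their calls.

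All 4 class I genes rose in Letmd1 KO BAT (23.7% of all genes tested rose), by log2 fold changes between 1.07 and 1.69, and their KO values all lay above their wild-type values (30.1% of all genes). Counts and values of all 10 genes are given mouse by mouse in the order of replicates 1, 2 and 3. B2m, the light chain of every class I molecule (chromosome 2, 122147686 to 122153083 on the plus strand of GRCm38 in GENCODE vM21), was at 935, 933 and 1059 CPM in wild-type BAT. In KO BAT B2m was at 2482, 4233 and 2756 CPM. KO replicate 2 was highest, and the lowest KO mouse had more than double the CPM of the highest wild-type mouse. The mean rose from 975 ± 72.3 to 3157 ± 942 CPM (SD, n = 3 each), a log2 fold change of 1.69 (SE 0.21, adjusted p = 0.000195 in the quasi-likelihood test of edgeR, Benjamini-Hochberg adjustment). Under quantile normalization with limma the value was 2.52.

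Of the heavy chains, H2-K1 (chromosome 17, 33996017 to 34000347, minus strand) was at 445, 397 and 456 CPM in wild-type mice and at 849, 1178 and 705 CPM in KO mice. This was the smallest change of the 10 genes, and the groups did not overlap. Its log2 fold change was 1.07 (SE 0.18, adjusted p = 0.00129, edgeR, Benjamini-Hochberg), and 0.84 without KO replicate 2, the highest mouse. H2-D1 (chromosome 17, 35262730 to 35267499, plus strand) was at 411, 402 and 462 CPM in wild-type mice, close to H2-K1. In KO mice H2-D1 reached 1019, 1511 and 1031 CPM, again highest in replicate 2 and without overlap. Its log2 fold change was 1.48 (SE 0.17, adjusted p = 0.000140, edgeR, Benjamini-Hochberg), and 2.08 under quantile normalization. Heavy chain genes are near copies of each other, and the study counted multiple alignments. Of all 75-base windows in the last 500 bases of their transcripts, 4.3% of those of H2-K1 and 10.4% of those of H2-D1 also occur in another gene, mainly H2-Q10 and H2-Q1; H2-Q1 itself had 0 to 2 counts in each mouse, and how many reads were shared was not tested. For B2m the share was 0.0%. These windows, and those given below, were matched exactly and on either strand, so near copies that differ by a base were not counted.

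Nlrc5, the class I transactivator (chromosome 8, 94434356 to 94527272, plus strand), was the least abundant class I gene, with 16, 29 and 36 counts in wild-type mice and 100, 80 and 132 in KO mice. Scaled, it was at 1.72, 3.07 and 4.69 CPM in wild-type and at 10.99, 10.6 and 7.76 CPM in KO BAT. Nlrc5 was the class I gene for which KO replicate 2 was not highest. Its log2 fold change was 1.63 (SE 0.35, adjusted p = 0.00461, edgeR, Benjamini-Hochberg). The spread of Nlrc5 was wide in wild-type mice (3.16 ± 1.49 CPM, SD, n = 3).

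**Figure D1:**
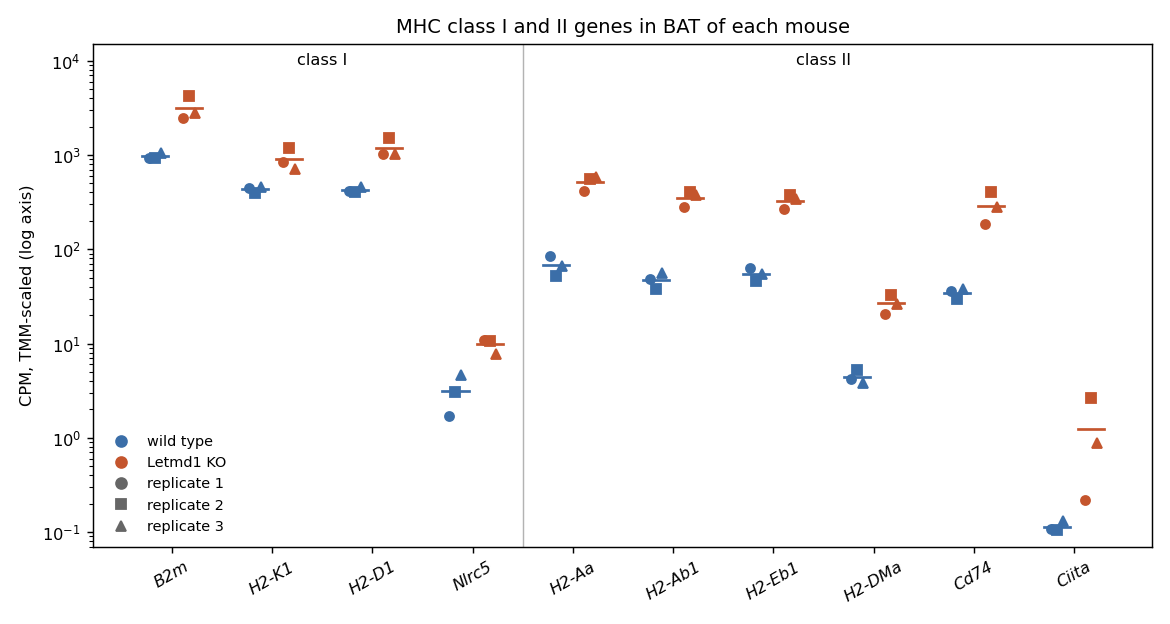
Level of each of the 10 MHC genes in each mouse (CPM after TMM scaling, log axis), with wild-type mice in blue, Letmd1 KO mice in orange, the replicate number as the shape and the mean as a bar. KO points lie above all wild-type points for every gene, with B2m at 933 to 1059 CPM against 2482 to 4233 CPM and Cd74 at 29.9 to 37.6 CPM against 187 to 401 CPM. The Ciita points rest on 1 to 20 counts.

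Summed over each class, class II genes were at lower levels than class I genes, though the mean of Nlrc5 was below those of all class II genes but Ciita in wild-type BAT. Of the 6 genes, 5 passed the filter on low counts and all 5 rose (23.7% of all genes tested rose), by log2 fold changes between 2.57 and 3.07. H2-Aa encodes the α chain of the I-A molecule (chromosome 17, 34282744 to 34287823, minus strand) and was at 83.9, 52.3 and 66.4 CPM in wild-type mice. In KO mice H2-Aa was at 415, 553 and 578 CPM. The lowest KO mouse was thus far above the highest wild-type mouse. Its mean rose from 67.5 ± 15.8 to 515 ± 87.7 CPM (SD, n = 3 each), with a log2 fold change of 2.93 (SE 0.20, adjusted p = 1.01e-05, edgeR, Benjamini-Hochberg).

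H2-Ab1, the β chain that pairs with H2-Aa (chromosome 17, 34257689 to 34269419, plus strand), was at 47.9, 37.6 and 56.6 CPM in wild-type mice and at 278, 401 and 377 CPM in KO mice. The 2 chains of I-A changed alike in size. The log2 fold change of H2-Ab1 was 2.90 (SE 0.19, adjusted p = 8.83e-06, edgeR, Benjamini-Hochberg). H2-Eb1 encodes the β chain of the I-E molecule (chromosome 17, 34305867 to 34316674, plus strand) and was at 63.2, 45.7 and 54.0 CPM in wild-type mice and at 269, 372 and 342 CPM in KO mice. Wild-type replicate 2 was lowest for all of H2-Aa, H2-Ab1 and H2-Eb1, and KO replicate 1 was lowest among the KO mice. For H2-Eb1 the log2 fold change was 2.59 (SE 0.17, adjusted p = 7.71e-06, edgeR, Benjamini-Hochberg). Its α partner on the I-E molecule is not made in this strain, and the pseudogene H2-Ea-ps had 0 counts in all 6 mice.

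Cd74, the invariant chain that fills the peptide groove of new class II molecules and guides them to endosomes (chromosome 18, 60803848 to 60812652, plus strand), was at 35.9, 29.9 and 37.6 CPM in wild-type mice. In KO mice Cd74 was at 187, 401 and 281 CPM. This was the largest change among the 9 genes tested, and also the class II gene with the widest KO spread relative to its mean among those tested (290 ± 107 CPM, SD, n = 3), since replicate 2 held more than double the level of replicate 1. Its log2 fold change was 3.07 (SE 0.26, adjusted p = 2.46e-05, edgeR, Benjamini-Hochberg), and leaving out single mice gave values between 2.77 and 3.30. H2-DMa, a chain of the H2-DM molecule that exchanges the Cd74 remnant for antigenic peptide (chromosome 17, 34119541 to 34139101, plus strand), was at 4.204, 5.30 and 3.78 CPM in wild-type and at 20.5, 33.0 and 26.3 CPM in KO mice. It was far less abundant than the antigen-presenting chains in both genotypes and did not overlap between them. The log2 fold change of H2-DMa was 2.57 (SE 0.23, adjusted p = 3.55e-05, edgeR, Benjamini-Hochberg). Brd2 overlaps it on the opposite strand and rose by 0.45 on the log2 scale (adjusted p = 0.0372, edgeR, Benjamini-Hochberg); whether the counting used strand is not given in the sources used here.

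Ciita, the class II transactivator (chromosome 16, 10480059 to 10528418, plus strand), had 1 count in each wild-type mouse and 2, 20 and 15 counts in the KO mice. It did not pass the filter. Dexi overlaps Ciita on the opposite strand, shares 1.3% of its 3′ windows and was far more abundant (37.0 CPM in wild-type and 25.02 CPM in KO BAT), with a log2 fold change of -0.56. Every KO count was above every wild-type count, but KO replicate 1 was within the floor of 3 counts, as were all wild-type mice. Pooled over the mice of a genotype and scaled by library, the rate was 9.67 times higher in KO BAT (95% interval 3.06 to 49.0 from an exact binomial test on the pooled counts, which covers counting error and not the spread between mice). Fitted without the filter, its log2 fold change was 3.27 (adjusted p = 0.0266, edgeR, Benjamini-Hochberg). Among the KO mice, Ciita was lowest in replicate 1, as were H2-Aa, H2-Ab1, H2-Eb1, H2-DMa and Cd74.

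The order of levels was much alike in both genotypes. In wild-type BAT, B2m was highest, followed by H2-K1 and H2-D1, whose ranges overlapped. Then came H2-Aa, H2-Eb1 and H2-Ab1, each overlapping the next, then Cd74, then H2-DMa and Nlrc5, which overlapped, and Ciita. In KO BAT, H2-D1 stood before H2-K1, and H2-Ab1 before H2-Eb1, both pairs with overlapping ranges, and Cd74 had come within the range of H2-Eb1. H2-DMa and Nlrc5, which overlapped in wild-type mice, did not overlap in KO mice (26.6 ± 6.21 against 9.78 ± 1.76 CPM, SD, n = 3 each).

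Class II genes changed more than class I genes. The median log2 fold change was 1.56 over the 4 class I genes and 2.90 over the 5 tested class II genes, against 0.03 over all genes tested, and the smallest class II value (2.57) lay above the largest class I value (1.69). This order held less far under quantile normalization, where B2m (2.52) stood above H2-DMa (2.29). Summed per mouse, class I genes made up 1792, 1734 and 1982 CPM in wild-type and 4361, 6933 and 4500 CPM in KO mice. The class II sum was 235, 171 and 218 CPM in wild-type and 1170, 1763 and 1604 CPM in KO mice. Class II transcripts thus came to 13.1%, 9.85% and 11.02% of the class I sum in wild-type mice and to 26.8%, 25.4% and 35.7% in KO mice, without overlap. The 10 genes together took between 0.169% and 0.187% of all counts in wild-type libraries and between 0.645% and 0.985% in KO libraries.

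To set class II against class I within each mouse, the log2 CPM of 3 class I genes was subtracted from that of their class II counterparts, with 3 such pairs compared. For the partner chains, Cd74 minus B2m was -4.69, -4.95 and -4.81 in wild-type and -3.73, -3.40 and -3.29 in KO mice. The difference moved by 1.35 towards class II (from -4.82 ± 0.13 to -3.47 ± 0.23, SD, n = 3 each; two-sided exact permutation p = 0.1, which is the smallest that 3 mice against 3 allow, and 0.15 adjusted over the 3 pairs). Under quantile normalization this shift was 0.66, still without overlap between the genotypes (exact permutation p = 0.1). H2-Ab1 minus H2-K1, a presenting chain of each class, was -3.21, -3.39 and -3.01 in wild-type and -1.61, -1.55 and -0.90 in KO mice. It moved by 1.85 (from -3.20 ± 0.19 to -1.36 ± 0.39, SD, n = 3 each; exact permutation p = 0.1, adjusted 0.15), most in KO replicate 3, where H2-K1 was lowest.

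The transactivators did not separate. Ciita minus Nlrc5 was -2.65, -3.42 and -3.89 in wild-type and -4.74, -1.92 and -2.88 in KO mice, and the wild-type values lay within the KO range. The shift was 0.14 (exact permutation p = 1), and leaving out single mice gave values between -0.49 and 0.92, and a prior count of 0.5 gave 0.71. At 1 to 20 counts of Ciita, this difference was not resolved at this depth. With 3 mice a genotype, the exact permutation test cannot go below 0.1 for any of the pairs.

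**Figure D2:**
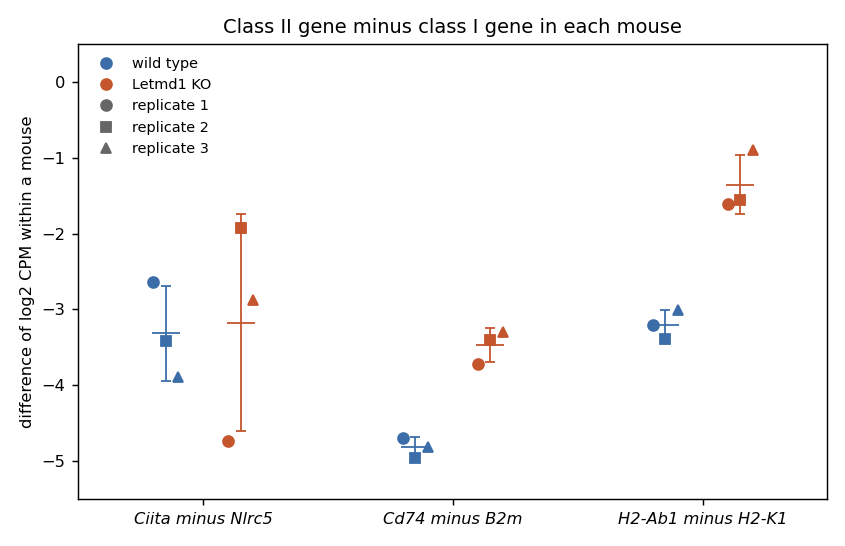
Log2 CPM of a class II gene minus that of its class I counterpart within each mouse, with wild-type mice in blue and Letmd1 KO mice in orange; bars are means and SD (n = 3). Cd74 minus B2m and H2-Ab1 minus H2-K1 are higher in all KO mice, with shifts of 1.35 and 1.85, whereas Ciita minus Nlrc5 overlaps, with a shift of 0.14.

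The other genes of the pathway did not move as one. Of 82 genes in 9 further lists, 59 were tested, and 33 rose, 4 fell and 22 passed neither way, with a median log2 fold change of 0.73 (edgeR with Benjamini-Hochberg adjustment at 0.05). Of all genes tested 23.7% rose and 22.3% fell, the shares against which the counts of each list stand. The lists were chosen with earlier results of these data known, so setting their counts beside these shares is no test. Among other class I heavy chains and class I-like molecules, 12 of 26 genes were tested, of which 9 rose and 2 fell (median 1.08, also with H2-M2 placed at its bound against the floor). H2-Q10, a secreted class I chain best known from liver, fell from 139, 135 and 200 CPM in wild-type to 10.5, 32.4 and 10.06 CPM in KO mice, against the direction of H2-K1 and H2-D1. The log2 fold change of H2-Q10 was -3.20 (SE 0.42, adjusted p = 0.000277, edgeR, Benjamini-Hochberg), and -3.94 without KO replicate 2. The other gene that fell, Cd1d1, which presents lipids to NKT cells and was named after its values were seen, went from 223 ± 23.2 to 55.1 ± 23.9 CPM (SD, n = 3 each). At the other end, H2-M2 had 0, 0 and 3 counts in wild-type and 13, 116 and 36 in KO mice, a pooled ratio of 43.1 (95% counting interval 14.5 to 211, which leaves out the spread between mice). KO replicate 2 held most of these counts, and the fitted log2 value of H2-M2 moved from 5.58 to 3.83 without KO replicate 2, to 8.98 without wild-type replicate 3 and to 2.76 under quantile normalization, passing the threshold each time. Also named after their values were seen, H2-Q9 had a log2 fold change of 1.92, and H2-T9 and H2-T22 each had 1.15 from nearly equal counts in every mouse. Of the 75-base 3′ windows of H2-T22, 33.8% occur in other genes, mainly H2-T10, and none could be made for H2-T9 or H2-Q9. These family members are therefore uncertain one by one.

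In the steps that load class I molecules, 4 of 8 genes rose and 1 fell (median 0.32). Tap1, a chain of the pump that carries peptides into the endoplasmic reticulum, rose from 14.3, 17.3 and 17.9 CPM in wild-type to 37.5, 45.4 and 33.1 CPM in KO mice, without overlap. The log2 fold change of Tap1 was 1.23 (SE 0.16, adjusted p = 0.000328, edgeR, Benjamini-Hochberg). Erap1, which trims peptides to length, changed by -0.55 on the log2 scale (adjusted p = 0.0437, edgeR, Benjamini-Hochberg) and lost its call in 9 of 13 alternatives. Its values in these ran from -0.64 (without wild-type replicate 2) to -0.13 (library size alone). Of the immunoproteasome and its PA28 activator, 2 of 5 genes rose (median 0.18), where 23.7% of all genes did. Psmb8 rose from 35.1 ± 1.97 to 87.2 ± 21.9 CPM and Psmb9 from 18.6 ± 1.73 to 41.6 ± 5.18 CPM (SD, n = 3 each), by 1.31 and 1.16 on the log2 scale. These encode induced catalytic subunits and are neighbours of Tap1 in the MHC. The third induced subunit, Psmb10, lies outside the MHC and had a log2 value of 0.18 (adjusted p = 0.478, edgeR, Benjamini-Hochberg), or 0.59 and past the threshold with scaling by library size alone (adjusted p = 0.022, edgeR), while the activator genes Psme1 and Psme2 had -0.22 and -0.28 and passed neither way; without KO replicate 2 both were lower (-0.36 each, adjusted p = 0.0463 and 0.0355, edgeR, Benjamini-Hochberg). The log2 fold changes of the constitutive subunits that these replace were 0.16 for Psmb5, -0.06 for Psmb6 and -0.50 for Psmb7, of which Psmb7 fell; its call was lost with scaling by library size alone (-0.08), under quantile normalization (-0.25) and without the 2 mice with most muscle markers (-0.50, adjusted p = 0.0561, edgeR, Benjamini-Hochberg). Psmb5 was called higher under quantile normalization (0.41) and, like Psmb6 (0.36), when scaled by library size (0.58). The signs of Psme1, Psme2 and Psmb6 flipped with scaling by library size alone, and that of Psmb6 also under quantile normalization. Reads of several of these genes may be shared, since some of their 3′ windows also occur in another gene or its pseudogene. This holds for Erap1 (19.4%), Psmb5 (43.6%), Psmb7 (30.8%), Psmb8 (170 of 1212 windows) and Psme2 (26.2%, shared with Psme2b).

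**Figure D3:**
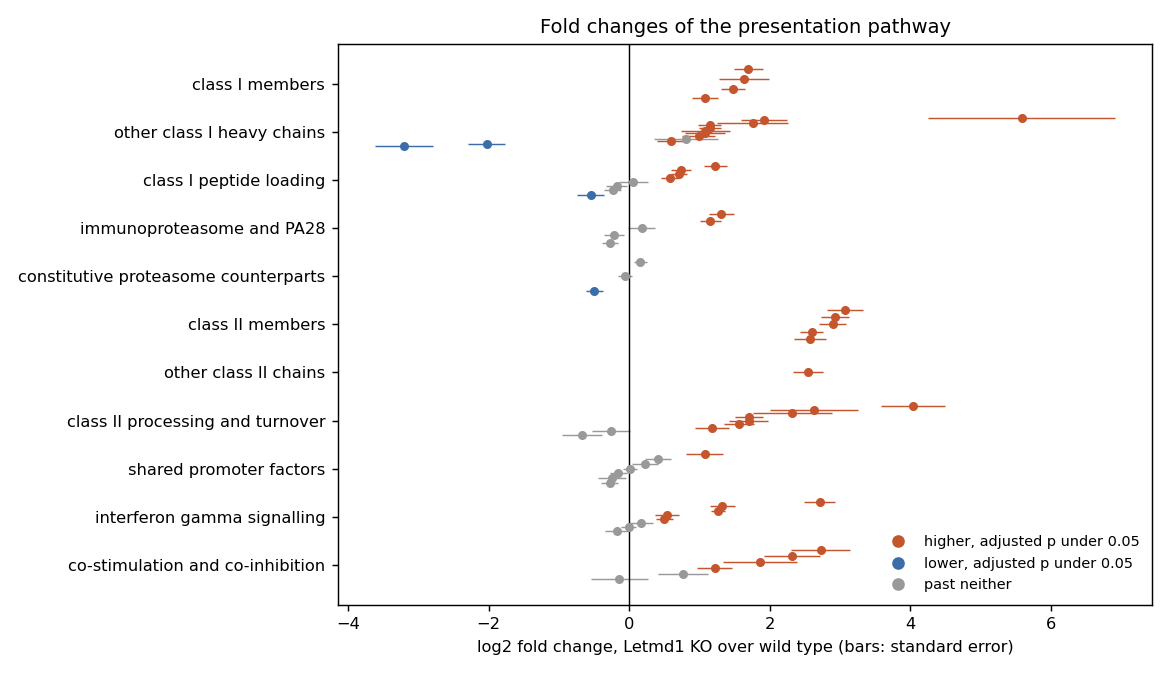
Log2 fold change (Letmd1 KO over wild type, with standard error) of each tested gene of both MHC classes and of 9 further lists of the pathway, coloured by its call in edgeR at an adjusted p of 0.05. All 9 tested MHC genes lie above 0, class II genes between 2.57 and 3.07 and class I genes between 1.07 and 1.69, while 3 constitutive proteasome subunits lie between -0.50 and 0.16 and 7 shared promoter factors between -0.28 and, for Nfya, 1.07. The rightmost point is H2-M2, whose fitted value rests on wild-type counts of 0 to 3.

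Among the other class II chains, H2-DMb1 was the only 1 of 6 genes to pass the filter. It encodes a partner of H2-DMa and rose from 6.90, 3.82 and 5.61 CPM to 31.4, 31.6 and 31.9 CPM, by 2.54 on the log2 scale (SE 0.21, adjusted p = 2.3e-05, edgeR, Benjamini-Hochberg), close to H2-DMa (2.57). Of the 981 windows of 75 bases from H2-DMb1, 196 also occur in H2-DMb2. The other chains were near the floor, and H2-Eb2, H2-Oa and H2-DMb2 had 0 counts in all wild-type mice. In KO mice H2-Eb2 had 7, 4 and 20 counts, at least 2.40-fold higher than the wild-type floor of 3 counts per library, and H2-Oa had 4, 8 and 13, at least 2.19-fold higher. Of the endosomal proteases and regulators of class II processing and turnover, 7 of 9 rose (median 1.70). Ctss, the cathepsin that removes Cd74 from class II molecules, changed most. It rose from 22.3, 11.98 and 18.6 CPM to 195, 510 and 164 CPM, highest in KO replicate 2 as Cd74 was, with a log2 fold change of 4.03 (SE 0.45, adjusted p = 0.000117, edgeR, Benjamini-Hochberg), and 3.34 without that mouse. At the low end, the log2 fold change of the lysosomal protease Ctsb was -0.67 (adjusted p = 0.0796, edgeR, Benjamini-Hochberg); it passed the threshold with no filter (-0.68), with the replicate number as a block (-0.78) and without KO replicate 2 (-1.15), where Ctsb stood at 1083 CPM against 525 and 470 CPM in the other KO mice, and 33.3% of its 3′ windows are shared with Fdft1.

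Of the 7 factors that bind the shared promoter elements, 1 was higher and none lower (23.7% of all genes tested were higher), with a median of 0.01. The genotypes did not overlap for 4 of the 7, near the share over all genes tested (57.3%). With scaling by library size alone, 4 of the 7 were higher, where 5899 of all 12995 genes tested were. Nfya, a subunit of NF-Y, which binds the CCAAT core shown above, rose from 4.53 ± 1.09 to 9.57 ± 1.47 CPM (SD, n = 3 each), a log2 fold change of 1.07 (adjusted p = 0.00863, edgeR, Benjamini-Hochberg). Nfyc, another subunit, had -0.28 (adjusted p = 0.0871, edgeR, Benjamini-Hochberg), and 0.14 with scaling by library size alone. In interferon gamma signalling, 5 of 8 tested genes rose (median 0.52). Ifng itself had 0 counts in all mice but KO replicate 2, which had 1. Irf8, a factor of myeloid cells that also answers to interferon gamma, rose most, from 4.85, 5.94 and 8.34 CPM to 37.5, 50.7 and 36.5 CPM, with a log2 fold change of 2.71 (SE 0.23, adjusted p = 2.46e-05, edgeR, Benjamini-Hochberg). The receptor chain Ifngr1 had the smallest value, -0.17, which turned to 0.25 when scaled by library size and to 0.0144 under quantile normalization. Of further genes of the route, named after their values were seen, the kinase gene Jak1 rose by 1.27 and the transcription factor gene Irf1 by 0.50 on the log2 scale. Irf2, named in the same way, had a log2 value of -0.00923 and passed neither way (adjusted p = 0.952, edgeR, Benjamini-Hochberg).

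Of 8 molecules that tell a T cell how to read the presented peptide or that help it to adhere, 6 were tested and 4 rose (median 1.54). Cd86, the co-stimulatory ligand of CD28, rose from 0.99 ± 0.53 to 6.74 ± 1.11 CPM (SD, n = 3 each), a log2 fold change of 2.72 (adjusted p = 0.000687, edgeR, Benjamini-Hochberg), or 2.04 under quantile normalization. The adhesion genes Cd48 and Icam1 rose by 2.32 and 1.21, and Icosl, a co-stimulatory ligand, by 1.86. Icosl lost its call without KO replicate 2 (log2 value 1.58, adjusted p = 0.0594, edgeR, Benjamini-Hochberg) and under quantile normalization (1.16, adjusted p = 0.0596, limma). Without the 2 mice with most muscle markers Icosl lost its call as well (2.06, adjusted p = 0.0738, edgeR), as did Icam1 (0.99, adjusted p = 0.0576, edgeR). In addition, 426 of 852 3′ windows of Icam1 occur in a second gene model. For Cd40 the log2 value was 0.77 (adjusted p = 0.11, edgeR, Benjamini-Hochberg), or 1.19 and past the threshold with scaling by library size alone (adjusted p = 0.0197, edgeR), and 0.17 under quantile normalization. The inhibitory ligand gene Cd274 had -0.14, from 28.4, 30.4 and 96.4 CPM in wild-type and 45.6, 44.9 and 49.3 CPM in KO mice; without wild-type replicate 3, the high mouse, it was 0.65 (adjusted p = 0.00367, edgeR, Benjamini-Hochberg).

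Among 11914 other genes with a mean of at least 20 counts, those closest to Cd74 across the 6 mice, by root mean square distance of centred log2 CPM, were Cd83 (0.18), Plek (0.20) and Ebi3 (0.23). Cd83, a marker of mature dendritic cells and B cells, was at 1.51, 1.38 and 2.35 CPM in wild-type and 12.4, 23.7 and 15.8 CPM in KO mice. Like Cd74, it was highest in KO replicate 2 and lowest in KO replicate 1 among the KO mice, which restates how it was chosen. Closest to B2m were Serpinf1 (0.07), Ucp2 (0.10) and Lgmn (0.11), the last a protease of the class II processing list. Serpinf1, which encodes the secreted factor PEDF, was at 14.4, 15.8 and 16.9 CPM in wild-type and at 41.3, 72.1 and 41.1 CPM in KO mice.

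Summed markers of leukocytes, macrophages and dendritic cells were higher in the same mice. All 5 leukocyte markers rose, where 23.7% of all genes tested did. Their sum was 34.1 to 47.2 CPM in wild-type and 245 to 414 CPM in KO mice. Macrophage markers rose in 9 of 9 tested genes of 10, from 170 to 244 CPM to between 1076 and 1808 CPM. Their median log2 fold change was 2.58, against 2.90 for the class II and 1.56 for the class I genes. The remaining macrophage marker, Mertk, did not pass the filter, with 12, 5 and 6 counts in wild-type and 2, 5 and 5 in KO mice. Dendritic cell markers rose in 7 of 9 genes, with sums of 23.01 to 34.2 CPM and 96.5 to 186 CPM. KO replicate 2 had the highest sum of all 3 lists. It also had the highest level of each MHC gene but H2-Aa, highest in replicate 3, and Nlrc5, highest in replicate 1. In whole tissue, more cells of a type and more RNA per cell cannot be told apart, and the part of these cells in the MHC results was not tested.

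Lymphocyte markers were scarce. None of the 7 B cell markers passed the filter, and their sum was 0.54 to 2.23 CPM in wild-type and 1.98 to 8.87 CPM in KO mice. The defining genes Cd79a and Pax5 were at or under 3 counts in every mouse. Cd22, named after its values were seen, had 0, 2 and 3 counts in wild-type and 2, 37 and 24 in KO mice. T cell markers summed to 3.67 to 7.43 CPM and 6.59 to 13.9 CPM, with 2 of 3 tested genes of 8 higher and Cd8a at or under 3 counts throughout. Of all genes tested, 23.7% were higher. The higher T cell markers were Cd4 (log2 fold change 1.70) and Cd2 (1.83), and Cd3d (-0.19) passed neither way. NK cell markers summed to 2.97 to 3.78 CPM and 7.36 to 13.6 CPM, with 2 of 3 tested genes of 6 higher and Prf1 at or under 3 counts throughout. The higher NK cell markers were Klrb1c (log2 fold change 1.81) and Klre1 (2.89), and Gzma (1.11) passed neither way. In contrast to the MHC genes, none of 7 endothelial markers rose and 3 fell, and 8 of 10 brown adipocyte markers fell. Of all genes tested, 22.3% fell. Class II genes stood at 171 to 235 CPM beside 39919 to 45281 CPM of adipocyte markers in wild-type mice. In KO mice they stood at 1170 to 1763 CPM beside 12393 to 16063 CPM.

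**Figure D4:**
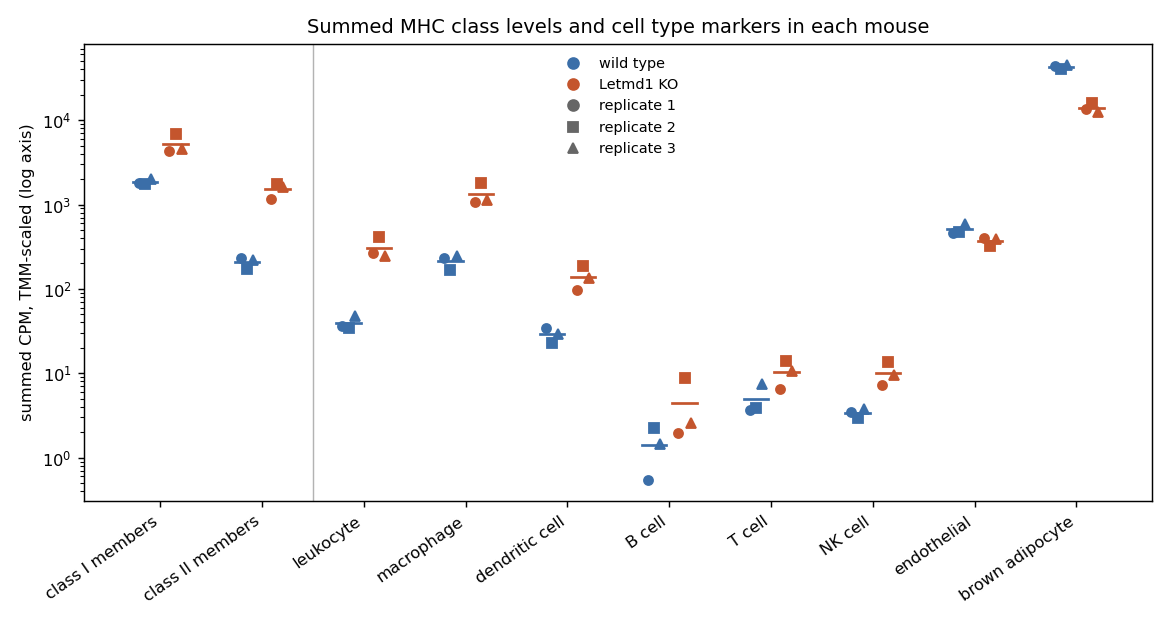
Summed CPM of the 4 class I genes, the 6 class II genes and each list of cell type markers in each mouse (log axis), with wild-type mice in blue, Letmd1 KO mice in orange and the mean as a bar. Macrophage markers (170 to 244 against 1076 to 1808 CPM) and class II genes (171 to 235 against 1170 to 1763 CPM) are both higher in every KO mouse, and brown adipocyte markers are lower in every KO mouse.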

How the data were processed

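RNA of BAT from 3 wild-type and 3 KO mice was profiled with QuantSeq 3′ libraries (single-end reads of 75 bases). The authors aligned them with Bowtie2 and used bedtools to count both unique and multiple alignments, and the deposited values are whole-number read counts of each gene, not normalized. The submitters' processing notes name mm10, while the annotation and use of strand are not given in the sources used here. Samples were grouped by the labels. The MHC genes and all lists were chosen with earlier results of these data known.

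Counts of all 23282 rows (5588 without counts) entered edgeR 4.0.16 in R 4.3.3. After TMM scaling and the default filter (minimum count 10, minimum total 15), 12995 genes were fitted with the quasi-likelihood test, with Benjamini-Hochberg adjustment at 0.05. The SE given with edgeR is the absolute log2 fold change divided by the square root of the F statistic of this test. Log2 CPM used a prior count of 2. For 35 symbols on several rows the first row was used. Totals of 6669577 to 14574273 counts put 3 counts at 0.176 to 0.397 CPM. Mice of a genotype were distinct libraries (chi-square divided by its degrees of freedom 11.5 to 34.0). The steps were tested on simulated counts. Named genes are the 10 MHC genes, the highest and lowest gene of each list (every gene where 6 or fewer were tested), the 3 genes most like Cd74 and B2m, and others marked as named after their values were seen. Alternatives were library size alone, quantile normalization (named by the study with edgeR, here fitted with limma 3.58.1), DESeq2 1.42.0, other filters, prior count 0.5, the replicate number as a block, leaving out each mouse, and, added after seeing the data, leaving out the 2 mice with most muscle markers in their genotype. Positions and 3′ windows came from GENCODE vM21 on GRCm38, and promoters from RefSeq. A gene and a promoter window are not reported here.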

Additional observations from a re-analysis of the deposited data

How the results depend on the processing

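Each of the 9 tested MHC genes was higher and passed the threshold in all 13 alternatives. Leaving out single mice gave counts of 4 class I and 5 to 6 class II genes, as Ciita passed the filter and the threshold without KO replicate 1 (log2 fold change 3.74, adjusted p = 0.0117, edgeR with Benjamini-Hochberg adjustment) and passed the filter but not the threshold without wild-type replicate 3 (adjusted p = 0.0589, edgeR). Genes of the pathway that fell numbered 2 with library size alone and without the 2 mice with most muscle markers, and 3 to 9 without single mice, with 9 without KO replicate 2; other class I heavy chains that rose numbered 5 under quantile normalization, 5 without those 2 mice and 6 to 8 without single mice. Constitutive proteasome genes that rose numbered 2 by library size and 1 under quantile normalization, other class II chains 4 with no filter and 1 to 2 without single mice, promoter factors 4 with library size alone, and co-stimulation genes 2 at a mean of at least 50 counts, 2 without those 2 mice and 3 to 5 without single mice. Ciita minus Nlrc5 ranged from -0.49 to 0.92 without single mice. With library size alone, signs turned for Psme1 (0.20), Psme2 (0.14), Psmb6 (0.36), Nfyc (0.14), Ifngr1 (0.25) and Cd274 (0.29), and under quantile normalization for Psmb6 (0.14), Ifngr1 (0.0144) and Cd274 (0.16). Leaving out mice, those 2 together included, gave Psmb10 values of -0.0187 (without KO replicate 2) to 0.38, Ifngr1 of -0.37 to 0.0453 (without those 2) and Cd274 of -0.47 to 0.65 (without wild-type replicate 3). The cause of these turns was not tested. Replicate numbers did not pair the mice (correlations of same-numbered mice -0.11 to 0.07, best match for 1 of 3); with the replicate block, 2886 genes rose and 2713 fell over all genes, Cd274 was 0.0815, and the shift of Cd74 minus B2m was 1.35 (exact sign flips, p = 0.25, the smallest they allow). Of 3082 higher and 2896 lower genes, library size alone made 5899 and 1368, so 81.2% of calls were higher against 51.6%. Depth limits Ciita and the minor class II chains.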

Other observations

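Within class I, the chains kept different ratios in the genotypes, a comparison chosen after the values were seen and not tested. H2-D1 stood at 0.92, 1.01 and 1.01 times H2-K1 in wild-type mice and at 1.20, 1.28 and 1.46 times in KO mice. B2m stood at 1.09, 1.17 and 1.15 times the sum of H2-K1 and H2-D1 in wild-type and at 1.33, 1.57 and 1.59 times in KO mice. Neither ratio overlapped between the genotypes, and both divide out the scaling of a library, though any reads that H2-K1 and H2-D1 share with other heavy chains would enter them.

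Among class II genes, H2-Aa stood at 1.75, 1.39 and 1.17 times H2-Ab1 in wild-type mice and at 1.49, 1.38 and 1.53 times in KO mice, so this ratio overlapped. Cd74 stood at 0.75, 0.79 and 0.66 times H2-Ab1 in wild-type and at 0.67, 0.999 and 0.74 times in KO mice, also with overlap.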
